A study of Mus musculus with 18 samples.

Results

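The nucleic acid sensors and adaptors TLR3, TLR7, IFIH1, DDX58, AIM2, TREX1, MAVS, TMEM173, TBK1 and IRF3 were followed in hippocampus RNA-seq of 18 mice. They were listed by name for their known roles in the detection of RNA and DNA, and all 10 were found among the 15644 genes of the count table. The mice were C57/B6 males and females in 3 groups, namely older mice given 3TC (lamivudine, a nucleoside analog that blocks reverse transcriptase), older mice on untreated water and younger mice on untreated water. Older mice were 20 months and younger mice 9 months old at tissue collection, and 3TC was given in drinking water at 2 mg/mL for 6 weeks. Each group held 6 mice, 3 of each sex, and each library came from the dissected left hippocampus of a separate animal. The question was whether the transcripts of these sensors differed with age or with 3TC, and how their levels compared with those of genes that brain tissue does not use.

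Cells detect foreign or misplaced nucleic acids with receptors in endosomes and in the cytoplasm. Toll-like receptors such as TLR3 (double-stranded RNA) and TLR7 (single-stranded RNA) read the contents of endosomes, while RIG-I (DDX58) and MDA5 (IFIH1) bind RNA in the cytoplasm and signal through the mitochondrial adaptor MAVS. Cytoplasmic DNA is read by AIM2, which starts an inflammasome, and by cGAS, which signals through STING (TMEM173). MAVS and STING both recruit the kinase TBK1, which phosphorylates the transcription factor IRF3 and so starts the interferon response, and the exonuclease TREX1 degrades DNA before it is sensed. In brain, many of these genes are best known from microglia, and reverse-transcribed retrotransposon RNA has been proposed as a ligand of the pathway with age.

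Total counts were 34.6 to 49.1 M per mouse, but repeats took 63.4% to 85.7% of them and genes only 6.01 to 13 M. The dissection was checked with listed markers. NEUROD6, a transcription factor of hippocampal pyramidal neurons, was at 17.5 to 36.9 CPM (counts scaled to library size after TMM normalisation) in 17 mice and at 1.56 CPM in older 3TC-treated female DFO4. The same library had a summed level of 475 CPM over 8 thalamus markers. That sum was 199 CPM in younger male YM1 and 77.4 to 108.5 CPM in the rest. The fold changes with 3TC whose size DFO4 decided, the sum of choroid plexus markers and the interactions of 3TC with sex are therefore also given without it.

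Each member was set beside 67 genes known for their use in other tissues, such as milk proteins, digestive enzymes and sperm nuclear proteins, here called silent genes. These genes were not without counts. Their median count over mice was 7 to 595 with a middle value of 83, and 66 of the 67 had at least 1 count in every mouse. Their counts followed exon length, with a Pearson r of 0.716 across the genes, which are not independent replicates (description, no test). The median silent gene lay at 0.654 to 1.67 CPM per kb of exon, depending on the mouse, and this level served as the yardstick.

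With these 67 genes and exon length, most of the members lay within the range of the silent genes. TBK1 alone of the members lay above their 95th percentile in all 18 mice. The silent genes were not uniformly low. APOA2, 1 of the 67, was also above that percentile in all 18 mice, at 3.56 times their median, and LCT was above it in 13. TBK1 was at 3.96 CPM per kb (median over mice), 3.60 times the median silent gene of the same mouse, with a range of 2.02 to 7.26 times. TREX1 lay at 1.98 times the silent median (range 1.03 to 3.32) and was above the 95th percentile in 11 mice, IRF3 lay at 1.54 times (0.731 to 2.69) and was above it in 3 mice, and MAVS lay at 1.40 times (1.12 to 2.04) and was above it in 0 mice. The other 6 members never exceeded that percentile. TMEM173 was at 1.09 times the silent median, TLR3 at 0.894, DDX58 at 0.806, AIM2 at 0.706, IFIH1 at 0.640 and TLR7 at 0.450 times. IFIH1 and TLR7 were below the median silent gene in all 18 mice. In counts, TLR7 had a median of 80.5, whereas a silent gene of the same exon length would have had 187, and TBK1 had a median of 648 against 179 for a silent gene of its length.

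**Figure D1:**
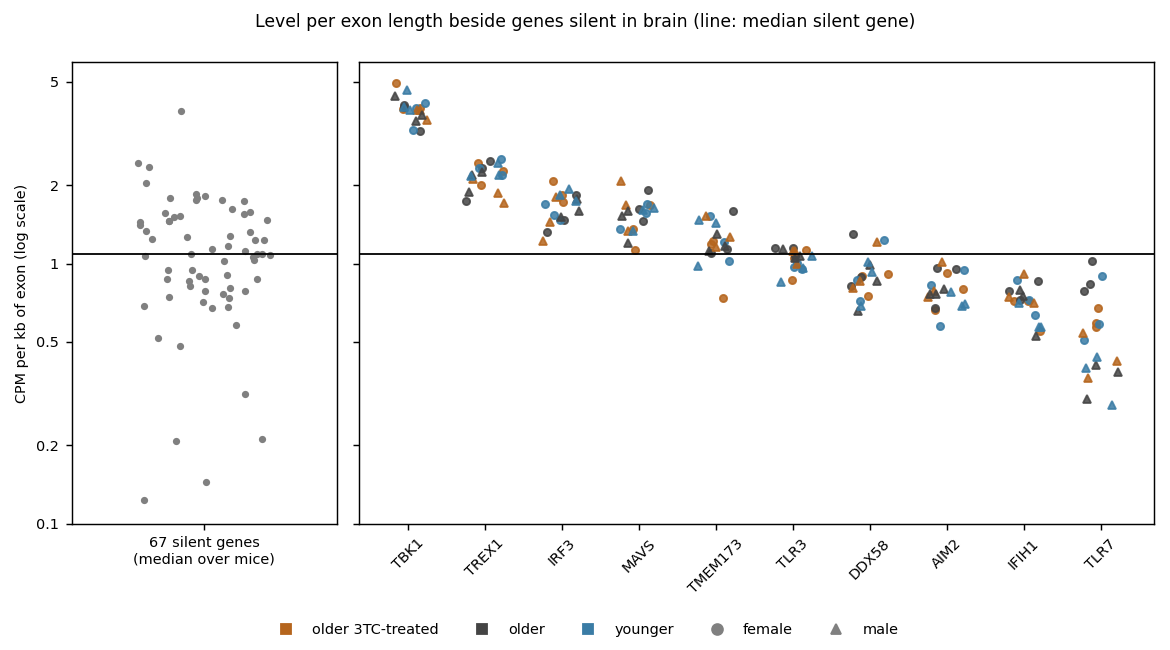
CPM per kb of exon on a log scale for the 67 silent genes (left, each point the median of a gene over mice) and for each member in each of the 18 mice (right, coloured by group, circles for females and triangles for males), with a line at the median of the silent genes. TBK1 stands at 3.23 to 4.93 CPM per kb, above the bulk of the silent genes, and TLR7 at 0.287 to 1.02 CPM per kb, below their median.

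Per kb of exon, TBK1 was above TREX1 and TREX1 above IRF3 in 18 of 18 mice, and MAVS was above TMEM173 in 18 of 18. IRF3 and MAVS could not be ordered by their spread, since IRF3 was the higher in 12 of 18 mice. Further down, TMEM173 was above TLR3 in 15 mice, TLR3 above DDX58 in 13, DDX58 above AIM2 in 14, AIM2 above IFIH1 in 14 and IFIH1 above TLR7 in 13. TREX1 needs a caveat here, because all of its 1147 exon bases in GENCODE vM21 are shared with Atrip on the same strand. The gene annotation behind the counts is not stated in the paper, so the part of Atrip in the TREX1 counts is not known. With coding length in place of exon length, IFIH1 lay at 1.0, AIM2 at 1.37, IRF3 at 2.50 and TLR7 at 0.343 times the silent median, and TBK1 stayed at 3.66 times. TREX1 lay at 1.39 and MAVS at 1.66 times. Per kb of coding length, IRF3 was at 3.335 to 5.693 CPM and TREX1 at 2.085 to 3.069 CPM, so the order of these 2 genes was reversed in 18 of 18 mice. TBK1, IRF3, MAVS and TMEM173 were then above the silent median in 18 mice, TREX1, DDX58 and AIM2 in 17, TLR3 and IFIH1 in 9 and TLR7 in 0, and the 95th percentile was exceeded by TBK1 in 18 mice, IRF3 in 15, TREX1 and MAVS in 3 each, AIM2 in 2, TMEM173 in 1 and the other 4 members in 0. With 92 genes of skin, lens, nose and germ-cell families as the silent set, the ratios ran between 0.713 for TLR7 and 5.47 for TBK1. The 95th percentile of that set was exceeded by TBK1 and MAVS in 18 mice, TREX1 in 17, IRF3 in 15, TMEM173 in 9, TLR3 in 4, AIM2 in 1 and DDX58, IFIH1 and TLR7 in 0. With the 67 genes and exon length, DDX58 was above the silent median in 2 mice, AIM2 in 1 and IFIH1 in 0. The place of TREX1, IRF3, MAVS, TMEM173, TLR3, DDX58, AIM2 and IFIH1 thus depended on the genes and the length used as the yardstick.

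TLR3, the endosomal receptor of double-stranded RNA, gave the smallest p of the members with age, although it did not pass the test. It was at 5.49 to 5.99 CPM (median 5.75) in older mice, against 4.43 to 5.54 CPM (median 5.02) in younger mice. In 5 of the 6 older mice it was above the highest younger mouse, and only male YM2 among the younger mice reached the older range. How many of all features separated these groups as far as TLR3 did was not counted. The log2 fold change was 0.19 (standard error 0.08, 95% interval 0.02 to 0.37), with an adjusted p of 1.0 from edgeR over 16774 genes and repeats. In bulk tissue, a difference in the number of cells of a type and in RNA per cell cannot be told apart. By p it had rank 38 in that comparison. With 3TC, TLR3 was at 4.50 to 5.85 CPM (median 5.64) in treated older mice, against 5.49 to 5.99 CPM (median 5.75) in older mice, with the low value from DFO4, and the log2 fold change was -0.08 (0.08, adjusted p = 1.0) or -0.03 without DFO4. The gene lies on chromosome 8 of mm10 from 45395665 to 45411080, and 381 of its 5207 exon bases overlap an antisense transcript, so reads of the pair could not be told apart without strand.

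TLR7, the endosomal receptor of RNA rich in uridine and guanosine, was the least abundant member per kb and had the widest intervals. It was at 1.48 to 2.76 CPM (median 2.26) in older 3TC-treated, 1.23 to 4.16 CPM (median 2.43) in older and 1.17 to 3.64 CPM (median 1.93) in younger mice. The ranges overlapped throughout, and 1 older mouse, female CFO2, was above the highest younger mouse. The 95% intervals were wide, from -0.33 to 0.87 on the log2 scale for older against younger and from -0.84 to 0.36 for older 3TC-treated against older mice (adjusted p = 1.0 from edgeR for both). With sex as a term the fitted log2 difference was 0.21 for older against younger and -0.15 for older 3TC-treated against older mice, against 0.27 for older against younger and -0.24 for older 3TC-treated against older mice in the model without it. Without CFO2 it was 0.08, against 0.27 with it, for older against younger mice, and -0.05, against -0.24 with it, for older 3TC-treated against older mice.

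**Figure D2:**
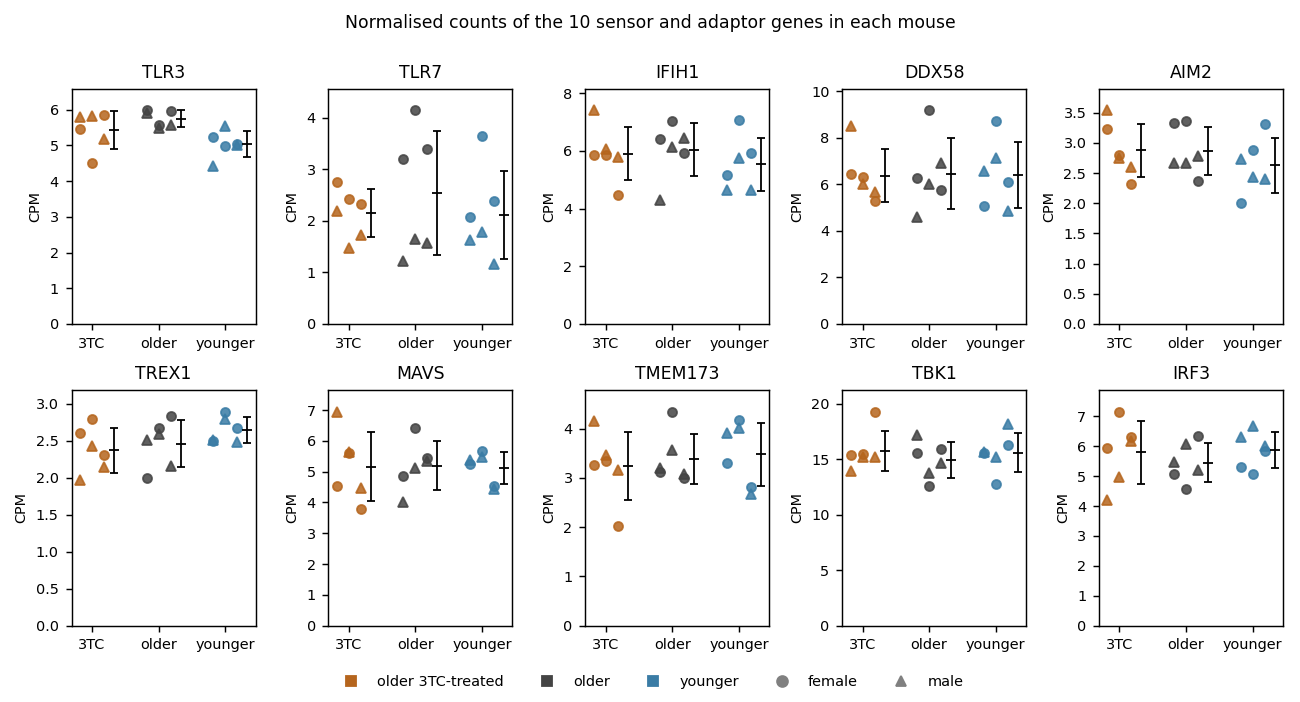
CPM of each member in each mouse, with older 3TC-treated, older and younger mice from left to right, circles for females, triangles for males, and the bar beside each group giving its mean and SD (n = 6). The groups overlap for each of the 10 genes, TLR3 is at 5.49 to 5.99 CPM in older and 4.43 to 5.54 CPM in younger mice, and for TLR7 the females lie above the males of their own group.

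IFIH1 and DDX58, the cytoplasmic RNA helicases MDA5 and RIG-I, are themselves interferon targets in mouse cells, and their promoters are shown for that reason. RefSeq promoters of GRCm38.p6, from 250 bases before to 50 bases after the start, matched 8 of the 10 members, all but TLR7 and TMEM173. The letters GAAA and GAAA with any 2 bases between them, on either strand, which form the core of the element bound by interferon-activated factors, were found in 3.44% of all 32851 promoters, and among the 8 members in Ifih1 and Ddx58 only. Capitals mark the match, which begins at base 33 from the start in Ifih1 (chr2:62646206-62646505, minus strand of the genome) and at base 3, on the opposite strand, in Ddx58 (chr4:40239776-40240075, minus strand), counting the start as base 1. A match describes letters and is not evidence of binding.
Ifih1: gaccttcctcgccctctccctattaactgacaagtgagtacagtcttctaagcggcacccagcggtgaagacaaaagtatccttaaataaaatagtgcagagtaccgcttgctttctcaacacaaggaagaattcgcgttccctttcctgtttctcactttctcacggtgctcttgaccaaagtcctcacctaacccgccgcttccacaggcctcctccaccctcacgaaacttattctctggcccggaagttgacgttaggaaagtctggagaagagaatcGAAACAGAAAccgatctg
Ddx58: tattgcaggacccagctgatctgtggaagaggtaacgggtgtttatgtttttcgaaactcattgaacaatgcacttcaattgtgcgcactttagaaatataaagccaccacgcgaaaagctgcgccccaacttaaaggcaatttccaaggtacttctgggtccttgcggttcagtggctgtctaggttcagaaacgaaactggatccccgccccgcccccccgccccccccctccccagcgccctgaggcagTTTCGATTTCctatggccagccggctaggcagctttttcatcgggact

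IFIH1 was at 4.48 to 7.42 CPM (median 5.86) in older 3TC-treated, 4.31 to 7.02 CPM (median 6.27) in older and 4.64 to 7.06 CPM (median 5.45) in younger mice. DDX58 was at 5.29 to 8.50 CPM (median 6.17) in older 3TC-treated, 4.61 to 9.19 CPM (median 6.13) in older and 4.85 to 8.70 CPM (median 6.33) in younger mice. For both helicases the groups covered nearly the same range, and the spread within a group was larger than any difference between groups. The log2 fold changes of older against younger mice were 0.13 for IFIH1 (standard error 0.13, interval -0.15 to 0.40) and 0.01 for DDX58 (0.16, -0.32 to 0.34), and those of older 3TC-treated against older mice were -0.03 for IFIH1 (0.13, -0.30 to 0.24) and -0.02 for DDX58 (0.16, -0.35 to 0.31). The adjusted p from edgeR was 1.0 for each. The highest DDX58 value of each group came from DMO5 (older 3TC-treated), CFO2 (older) and YF3 (younger), which were also the mice with the highest level of silent genes in their group.

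AIM2, the cytoplasmic DNA receptor of the inflammasome, and TREX1, the exonuclease that clears cytoplasmic DNA, are the members that meet DNA directly. AIM2 was at 2.33 to 3.55 CPM (median 2.77) in older 3TC-treated, 2.36 to 3.37 CPM (median 2.73) in older and 2.0 to 3.31 CPM (median 2.58) in younger mice. TREX1, with the caveat on Atrip, was at 1.96 to 2.80 CPM (median 2.36) in older 3TC-treated, 2.0 to 2.83 CPM (median 2.55) in older and 2.49 to 2.89 CPM (median 2.59) in younger mice. The groups overlapped for both genes, and TREX1 had 2 of its 6 treated mice within the younger range. The log2 fold change of older against younger mice was 0.13 for AIM2 (standard error 0.14) and -0.10 for TREX1 (0.12). That of older 3TC-treated against older mice was 0.00 for AIM2 (0.14) and -0.05 for TREX1 (0.12), and the TREX1 value was -0.10 without DFO4. None passed edgeR's test (adjusted p = 1.0 for each). The cytoplasmic DNA sensor cGAS was not analysed here.

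MAVS and STING (TMEM173) are the adaptors of the RNA and the DNA branch. MAVS was at 3.78 to 6.95 CPM (median 5.08) in older 3TC-treated, 4.02 to 6.42 CPM (median 5.22) in older and 4.45 to 5.67 CPM (median 5.31) in younger mice. TMEM173 was at 2.03 to 4.16 CPM (median 3.30) in older 3TC-treated, 3.00 to 4.34 CPM (median 3.16) in older and 2.68 to 4.17 CPM (median 3.61) in younger mice. The widest spread of both adaptors was among treated mice, with DFO5 lowest and DMO5 highest. Older against younger mice gave log2 fold changes of 0.02 for MAVS (interval -0.26 to 0.30) and -0.04 for TMEM173 (-0.37 to 0.29), and older 3TC-treated against older mice gave -0.01 for MAVS (-0.29 to 0.27) and -0.07 for TMEM173 (-0.39 to 0.26), with an adjusted p of 1.0 from edgeR in each case.

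TBK1, the kinase on which both branches converge, and IRF3, its substrate and the factor that switches on interferon beta, stand at the end of the pathway, and TBK1 had the most counts of all members. TBK1 was at 13.9 to 19.3 CPM (median 15.3) in older 3TC-treated, 12.6 to 17.2 CPM (median 15.1) in older and 12.8 to 18.2 CPM (median 15.6) in younger mice. IRF3 was at 4.19 to 7.16 CPM (median 6.07) in older 3TC-treated, 4.56 to 6.33 CPM (median 5.35) in older and 5.06 to 6.68 CPM (median 5.92) in younger mice. Neither separated the groups. The log2 fold change of older against younger mice was -0.06 for TBK1 (standard error 0.10, interval -0.27 to 0.15) and -0.10 for IRF3 (0.12, -0.35 to 0.14). For older 3TC-treated against older mice it was 0.08 for TBK1 (0.10, -0.13 to 0.28) and 0.09 for IRF3 (0.12, -0.16 to 0.33), and the adjusted p from edgeR was 1.0 for each. The highest IRF3 value, 7.16 CPM, was that of DFO4, without which the IRF3 difference with 3TC was 0.02. The highest TBK1 value, 19.3 CPM, was that of DFO5, without which the TBK1 difference was 0.01.

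The promoters of Tbk1 and Aim2 are shown to contrast TBK1, above the 95th percentile of the silent genes on each of these yardsticks, with AIM2, which was below it in at least 16 mice on each. Capitals mark CpG pairs, which are dense in the promoters of many broadly used genes. Tbk1 (chr10:121586745-121587044, minus strand) held 37 CpG in its 300 bases and Aim2 (chr1:173420354-173420653, plus strand) held 5, against a median of 7 over all promoters. Of the other 6 matched members, Mavs held 19, Irf3 18, Ddx58 15, Ifih1 14 and Tlr3 10. Trex1 has 2 starts, with 5 and 7. The order of CpG counts was not that of the median level per kb of exon, where TREX1 came next after TBK1 and IFIH1 lay below AIM2.
Tbk1: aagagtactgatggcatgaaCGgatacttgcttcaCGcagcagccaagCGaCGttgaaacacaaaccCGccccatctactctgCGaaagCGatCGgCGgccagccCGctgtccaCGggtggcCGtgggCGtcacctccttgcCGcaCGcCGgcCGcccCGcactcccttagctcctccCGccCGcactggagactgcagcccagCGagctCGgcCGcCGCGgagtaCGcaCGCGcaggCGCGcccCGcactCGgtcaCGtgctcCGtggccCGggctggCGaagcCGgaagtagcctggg
Aim2: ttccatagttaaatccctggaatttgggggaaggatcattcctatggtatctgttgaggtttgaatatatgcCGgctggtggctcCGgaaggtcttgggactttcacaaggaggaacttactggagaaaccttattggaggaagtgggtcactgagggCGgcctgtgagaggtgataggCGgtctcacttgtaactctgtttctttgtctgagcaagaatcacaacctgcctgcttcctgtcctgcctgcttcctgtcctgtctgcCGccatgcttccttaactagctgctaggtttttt

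In older against younger mice, 0 of the 10 members passed edgeR's test, where 0.0119% of all 16774 genes and repeats passed. TLR3 was the only member with an unadjusted p under 0.05 from edgeR, where 67 of 16774 features (0.399%) had one. In DESeq2, 0 members passed. Of the members, 6 had a log2 fold change above 0 and 4 below, with a median of 0.02, beside a median of -0.0005 over all genes and repeats. In older 3TC-treated against older mice, 0 members passed, where 0% of all features passed (194 of 16774 had an unadjusted p under 0.05, and DESeq2 called 0). No member had an unadjusted p under 0.05 there, 0 passed DESeq2, and 3 members were above 0 and 7 below, with a median of -0.03 beside 0.0012 over all. In older 3TC-treated against younger mice, 0 members passed where 0.0119% of all did, and 0 passed DESeq2. An unadjusted p under 0.05 from edgeR was found for 0 members there, and for 288 of 16774 features (1.72%). The comparisons share groups of mice and are not independent of each other. Microglial markers summed to 94.5 to 150 CPM in older 3TC-treated, 103 to 139 CPM in older and 92.4 to 122 CPM in younger mice, and 12 of 13 were above 0 in older against younger mice, with 0 past the test. Choroid plexus markers summed to 31.5 to 424 CPM (31.5 to 244 CPM without DFO4) in older 3TC-treated, 40.3 to 657 CPM in older and 42.2 to 645 CPM in younger mice, and 0 of 10 were above 0 with 3TC. With the microglial markers as a term, the fitted differences of older against younger mice were larger in size for all members but TLR7. IFIH1 had a log2 fold change of 0.32 (edgeR adjusted p = 0.0897) in that model and 0.13 without the term, IRF3 -0.30 (adjusted p = 0.0884) and -0.10 without it, DDX58 0.27 (0.165) and 0.01, AIM2 0.26 (0.192) and 0.13, MAVS 0.23 (0.162) and 0.02, TMEM173 0.20 (0.312) and -0.04, and TBK1 -0.20 (0.124) and -0.06. TLR3 had 0.21 (0.116) and 0.19, and 0 members passed. The sum of the microglial markers had an r of -0.76 with the level of silent genes over the 18 mice. DDX58, TMEM173, IFIH1 and MAVS (r of 0.81 to 0.88) and TBK1 (r = -0.90) also moved with that level. Its part in the fitted differences with this term was not tested. With the choroid plexus markers as a term TLR3 had 0.20 (edgeR adjusted p = 1.0).

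**Figure D3:**
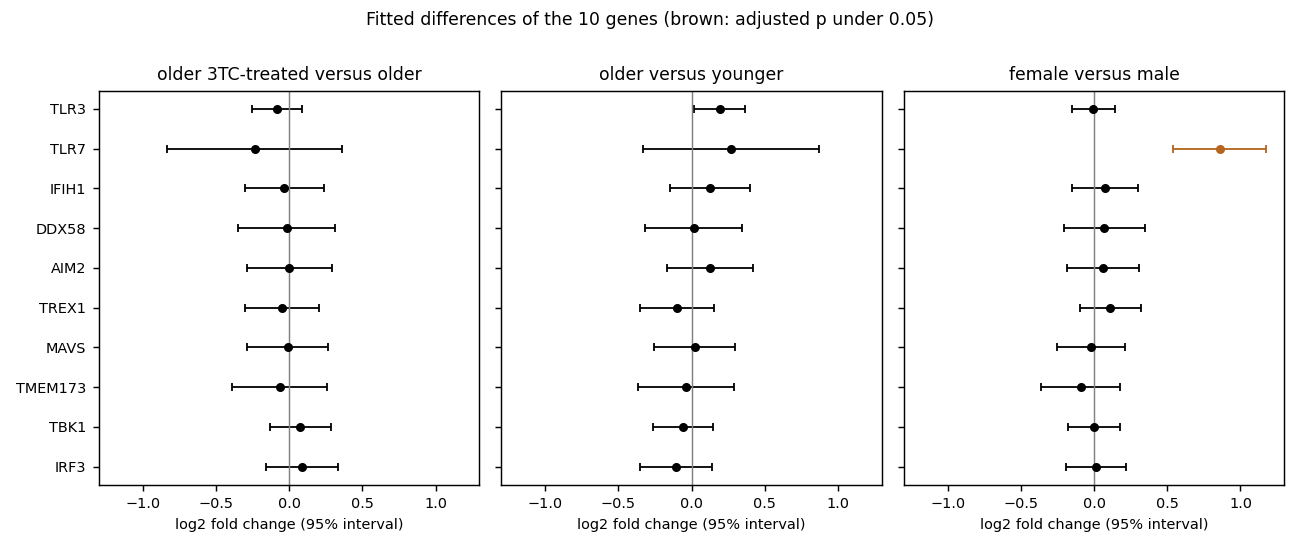
Fitted log2 fold change of each member with its 95% interval for older 3TC-treated against older mice, older against younger mice, and females against males, from edgeR. Brown marks an adjusted p under 0.05, reached by TLR7 in the comparison of the sexes (0.86, 0.54 to 1.17), and all group differences shown lie between -0.24 and 0.27.

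The one called difference among the members was between the sexes. TLR7, an X-linked gene (chromosome X of mm10, 167304929 to 167330558), was at 2.08 to 4.16 CPM (median 2.76) in 9 females, against 1.17 to 2.20 CPM (median 1.62) in 9 males. Females and males did not overlap within any group, with 2.33 to 2.76 CPM in females against 1.48 to 2.20 CPM in males of the older 3TC-treated group, 3.21 to 4.16 CPM in females against 1.23 to 1.66 CPM in males of the older group and 2.08 to 3.64 CPM in females against 1.17 to 1.78 CPM in males of the younger group. With group and sex as terms in edgeR the log2 fold change was 0.86 (standard error 0.15, adjusted p = 0.00339). This test was added after the values had been seen. TLR7 was 1 of 10 members that passed, where 1.53% of all features passed, and the other 9, all autosomal, had log2 differences between -0.09 and 0.11. Among X-linked genes a call was common. It was made for 240 of 560 of them, and for 79 of the 105 under 0.5 times the silent median, where TLR7 lies. All 105 of these had a fitted difference above 0, that is, higher in females. How many features, or X-linked genes, separated the sexes within every group as TLR7 did was not counted. Leaving out each mouse kept the adjusted p of TLR7 between 0.00137 and 0.0106.

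The silent genes of the X chromosome also differed between the sexes. The 16 X-linked genes of the tissue and family sets, among them AMELX (an enamel protein) and F9 (a liver clotting factor), were all higher in females, with a median log2 difference of 0.95 (a fold of 1.93), and 7 of the 16 passed. The 64 autosomal silent tissue genes had a median of -0.03. TLR7 divided by the median of the X-linked silent genes, per kb, was 0.859 to 1.40 (median 1.03) in females and 0.958 to 1.48 (median 1.29) in males, so that the ratio overlapped between the sexes and its median was lower in females. Among all 560 tested X-linked genes the female excess became smaller with the level. The median log2 difference was 0.92 over the 105 genes under 0.5 times the silent median, where TLR7 lies, 0.77 over 155 genes at 0.5 to 1 times, 0.35 over 122 genes at 1 to 2 times, 0.20 over 94 genes at 2 to 4 times and 0.08 over 84 genes above 4 times. Of the 257 features called between the sexes, 240 were X-linked genes and 1 was an autosomal gene, IFIT3. Among other X-linked genes of the pathway, TLR8, a neighbour of TLR7 in the Toll family, was at 0.245 times the silent median and differed by 1.04 (standard error 0.25, edgeR adjusted p = 0.0299), whereas IRAK1, a kinase below TLR7, was at 2.13 times and differed by 0.28 (0.09, adjusted p = 0.302). The part of the background level in the TLR7 difference was not tested.

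**Figure D4:**
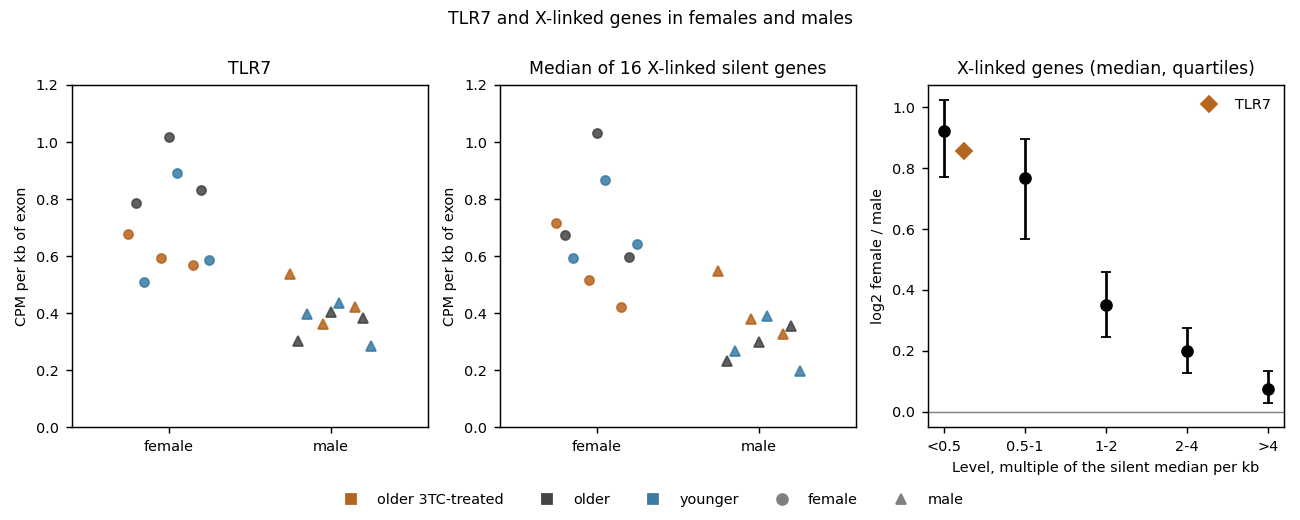
CPM per kb of exon of TLR7 (left) and of the median of 16 X-linked silent genes (middle) in females and males, and the log2 female to male difference of X-linked genes by their level relative to the silent median, with medians and quartiles and TLR7 as a brown diamond (right). Females lie at 0.508 to 1.02 and males at 0.287 to 0.539 CPM per kb for TLR7, and the X-linked difference is 0.92 in the lowest class and 0.08 in the highest.

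The fitted TLR7 difference with 3TC had opposite signs in the sexes, and the test of that interaction did not pass. In females the fitted log2 change of older 3TC-treated against older mice was -0.52, and in males it was 0.28. The interaction was -0.79 (standard error 0.34, edgeR adjusted p = 0.447 over all features). The same sign of interaction was seen for the helicases and adaptors, with -0.45 for IFIH1, -0.43 for DDX58, -0.50 for MAVS and -0.40 for TMEM173, and the opposite sign for IRF3 (0.40) and TBK1 (0.23). None of the 10 members passed edgeR (adjusted p of 0.447 to 0.65), where 0 of all 16774 features passed. TLR7 alone of the members had an unadjusted p under 0.05 (0.0314). How many of all features had such an unadjusted p, or shared a sign, was not counted for the interactions. Without DFO4, a setting chosen after seeing the data, the interaction was -0.77 for TLR7 (standard error 0.37, unadjusted p = 0.0536, edgeR adjusted p = 0.419) and -0.66 for MAVS (0.26, unadjusted p = 0.024, adjusted p = 0.419), and the signs of the other 5 named here were the same. For older 3TC-treated against younger mice the interaction was 0.56 for IRF3 (0.22, unadjusted p = 0.0178, edgeR adjusted p = 0.373) and -0.52 for IFIH1 (0.25, unadjusted p = 0.0487, adjusted p = 0.373), or 0.48 for IRF3 and -0.58 for IFIH1 without DFO4 (adjusted p = 0.37 for both), and -0.35 for TLR7 (0.34, adjusted p = 0.519). For older against younger mice it was 0.45 for TLR7 (0.34, adjusted p = 1.0), and no member had an unadjusted p under 0.05. No member passed in these comparisons, where 0 of all 16774 features passed. The mean log2 CPM of the silent genes moved in the same way, at 0.79 in treated and 1.13 in untreated older females, and at 1.3 in treated and 0.99 in untreated older males. Its part in the interactions was not tested.

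Across mice, 4 members rose and TBK1 fell with the level of silent genes. The level of silent genes was taken as their mean log2 CPM in a mouse, which ran between 0.36 (YM1) and 1.63 (DMO5). Over 18 mice, Pearson's r with this level was 0.88 for DDX58 (Spearman's rho 0.80), 0.83 for TMEM173 (0.73), 0.82 for IFIH1 (0.69) and 0.81 for MAVS (0.70), and it was -0.90 for TBK1 (-0.88). The permutation p was 4e-05 for DDX58, 1e-05 for TMEM173 (the smallest that 100000 permutations can give), 6e-05 for IFIH1, 9e-05 for MAVS and 2e-05 for TBK1, each with an adjusted p of 0.00018 or below over 10 relations. For the ranks, the permutation p was 0.0001 for DDX58 (adjusted p = 0.0005), 0.00069 for TMEM173 (0.0023), 0.00213 for IFIH1 (0.00426), 0.00187 for MAVS (0.00426) and 1e-05 for TBK1 (0.0001). Within each group r was between 0.71 and 0.98 for the 4 positive relations and between -0.96 and -0.88 for TBK1. Without YM1 and DFO5, the 2 mice farthest from the median, r was 0.91 for DDX58, 0.73 for TMEM173, 0.74 for IFIH1, 0.75 for MAVS and -0.83 for TBK1.

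AIM2 (r = 0.55, rho = 0.52) and IRF3 (r = -0.54, rho = -0.48) related to the silent level more weakly. Their permutation p-values for r were 0.0172 for AIM2 and 0.0191 for IRF3 (adjusted p = 0.0273 for both), and for rho 0.0302 for AIM2 (adjusted p = 0.0503) and 0.0458 for IRF3 (adjusted p = 0.0655). The adjusted permutation p of r was 0.109 for AIM2 and 0.13 for IRF3 without DMO5, 0.0598 for AIM2 and 0.0532 for IRF3 without DFO5, and 0.0746 for AIM2 and 0.0841 for IRF3 without CFO2, so that neither relation passed when any 1 of these mice was left out, and without YM1 and DFO5 together r was 0.44 for AIM2 and -0.56 for IRF3. TLR7 (r = 0.38, permutation p = 0.122, adjusted p = 0.152, rho = 0.17, p = 0.508, adjusted p = 0.635), TREX1 (r = -0.07, p = 0.783, adjusted p = 0.87, rho = -0.03, p = 0.902, adjusted p = 0.902) and TLR3 (r = -0.02, p = 0.93, adjusted p = 0.93, rho = -0.12, p = 0.626, adjusted p = 0.696) showed no relation that passed. Such relations were common in these libraries. Of 15635 genes, 25.5% had an r of 0.8 or more with the silent level and 20.4% an r of -0.8 or less, beside 4 and 1 of the 10 members. The permutation p is against no relation, so it does not mark the members out from other genes. Per kb of exon, DDX58, TMEM173, IFIH1 and MAVS were themselves at 0.640 to 1.40 times the silent median.

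The silent level in turn moved with the composition of the libraries. It correlated with the share of counts in repeats over the 18 mice (r = 0.98, rho = 0.91) and with the counts in genes (r = -0.91, rho = -0.86), and less with total counts (r = 0.42, rho = 0.38), given here as a description of libraries that share these counts. Between groups it differed by less than the spread within them. The mean was 1.05 in older 3TC-treated, 1.06 in older and 1.03 in younger mice, with two-sided exact permutation p-values of 0.944 for older 3TC-treated against older, 0.887 for older against younger and 0.933 for older 3TC-treated against younger mice. The smallest p these groups of 6 allow is 0.00216. The marker sums of cell types and regions had r of -0.87 for astrocyte, -0.80 for oligodendrocyte, -0.76 for microglial, -0.72 for neuronal, -0.57 for hippocampal, -0.32 for choroid plexus and -0.30 for thalamus markers, but 0.37 for endothelial and 0.96 for blood and lymphocyte markers (descriptions over 18 mice). Of 8 listed blood and lymphocyte markers, 5 were in the count table, at 0.309 to 1.18 times the silent median. Their r therefore sets genes at the silent level against silent genes and is not a measure of blood content. With the silent level as a term in edgeR, 0 members passed in any group comparison.

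**Figure D5:**
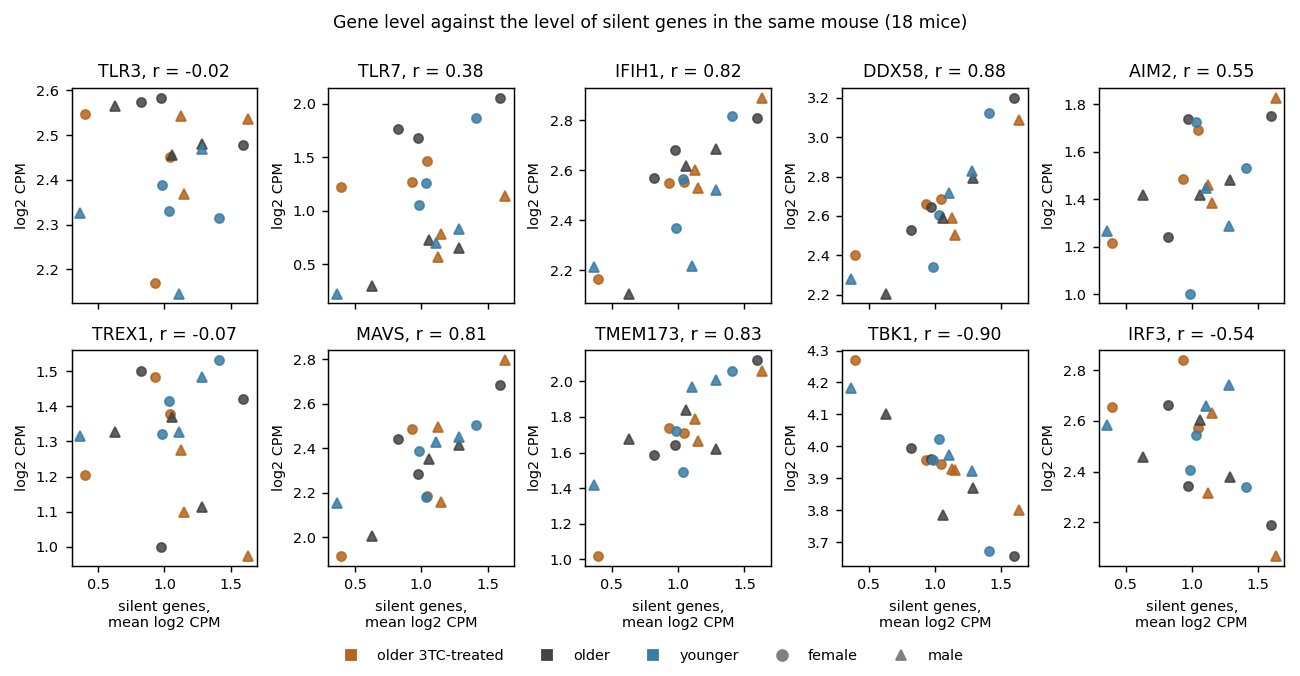
Log2 CPM of each member against the mean log2 CPM of the silent genes in the same mouse (18 points per panel, coloured by group, circles for females and triangles for males). DDX58, TMEM173, IFIH1 and MAVS increase along the axis (r of 0.81 to 0.88), TBK1 decreases (r = -0.90), and the groups are mixed in every panel.

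The genes most like each member over the 18 mice, among 14861 genes with a mean count above 50, are given as a description of shared variation. For TLR7 they were all X-linked, SCML2 (r = 0.95), TEX11 (0.94), a meiosis gene, and CYBB (0.94), the phagocyte oxidase subunit. For IFIH1 they were ANKAR, SLC13A1 (a sulfate transporter of kidney) and IMPG1 (a retina matrix protein), at 0.93 to 0.94, and for TMEM173 C1RL, SAG (the arrestin of photoreceptors) and TRIB3, at 0.93 to 0.94. DDX58 was nearest to RBPMS, KIF24 and KIF9 (0.95 each), and MAVS to TRIM45, SCTR (the secretin receptor) and TCTEX1D4 (0.93 to 0.95). TBK1 was nearest to FAM104A, DHX9 (a helicase that unwinds RNA) and PLAA (0.92 to 0.93), and IRF3 to USP10, ACADVL and TPP1 (0.84 to 0.87). AIM2, TLR3 and TREX1 had looser company, with best values of 0.86 for ATAD5, 0.76 for TBC1D1 and 0.71 for MRTO4. Among the members themselves, MAVS and TMEM173 had an r of 0.80, IFIH1 and DDX58 of 0.81, and TBK1 had -0.78 with MAVS and -0.85 with TMEM173.

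Of 25 further sensors, 13 were above 0 in older against younger mice and 16 were above 0 in older 3TC-treated against older mice, with 0 past edgeR's test in either comparison. Those with the smallest p with age were PRKDC (a DNA repair kinase, log2 fold change 0.14, standard error 0.09), EIF2AK2 (the RNA-activated kinase PKR, 0.14, 0.11) and DDX60 (a helicase, 0.15, 0.17), and with 3TC DHX33 (-0.19, 0.13), LRRFIP1 (0.08, 0.09) and DDX3X (0.17, 0.22). Per kb, 6 of the 24 sensors with a known length exceeded the 95th percentile of the silent genes in all mice, mostly helicases with general roles in RNA such as DDX3X and DHX9, and 8 were at or below the silent median. TLR9, the endosomal DNA receptor, was at 0.979 times that median and differed by 0.09 (0.17) with age and -0.04 (0.17) with 3TC.

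Of 31 further adaptors and kinases, 18 were above 0 with age and 11 with 3TC, and 0 passed. CASP1 (the inflammasome protease) had 0.23 (0.20), TANK (a scaffold of TBK1) -0.10 (0.10) and FADD 0.14 (0.16) with age, while TANK had 0.14 (0.10), MYD88 (the adaptor of TLR7) -0.12 (0.15) and RNF135 (a ligase that activates RIG-I) -0.14 (0.18) with 3TC. TICAM1, the adaptor of TLR3, was at 0.02 (0.14) with age and -0.01 (0.14) with 3TC. MYD88 lay at 1.15 and TICAM1 at 1.01 times the silent median, and only HSP90AA1 of this list exceeded the 95th percentile in all mice.

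Of 11 transcription factors, 5 were above 0 with age and 7 with 3TC, and 0 passed. IRF9, of the interferon response, had 0.17 (0.10) with age and NFKB1 had 0.10 (0.08), and with 3TC IRF9 had -0.21 (0.10), STAT2 0.13 (0.08) and JUN -0.21 (0.20). Over the 5 lists of pathway genes beside the 10 members, IRF9 with 3TC was the only gene with an unadjusted p under 0.05 in these 2 comparisons (0.0455, edgeR adjusted p = 1.0). IRF7, the interferon-inducible relative of IRF3, was at 0.682 times the silent median and at -0.02 (0.20) with age and 0.16 (0.20) with 3TC. Of 24 nucleases and inhibitors, 9 were above 0 with age and 16 with 3TC, and 0 passed, with TREX2 (a nuclease related to TREX1) at -0.38 (0.35), RNF5 at 0.11 (0.15) and RNF125 at -0.16 (0.23) with age, and LSM11 at -0.10 (0.09), BANF1 at 0.11 (0.10) and RNF5 at 0.15 (0.15) with 3TC.

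A further list held 18 interferon targets and receptors, among them the receptor chains IFNAR1 and IFNAR2. With age 17 of 18 were above 0, beside 49.8% of all features, and the median log2 fold change was 0.10 beside -0.0005 over all features. With 3TC 7 of 18 were above 0, beside 50.5% of all features, and the median was -0.04 beside 0.0012. None passed edgeR in either comparison or had an unadjusted p under 0.05. In older 3TC-treated against younger mice 14 of 18 were above 0, beside 53.8% of all features, and the median was 0.12 beside 0.0099. None passed, and IFIT3 (0.37, 0.17) and IFIT2 (0.28, 0.13) had an unadjusted p under 0.05 (0.0357 for IFIT3 and 0.0404 for IFIT2, edgeR adjusted p = 1.0 for both). Of 13 microglial markers, 12 were above 0 with age (median 0.17), 8 with 3TC (median 0.01) and 11 in older 3TC-treated against younger mice (median 0.21), and their part in the values of the interferon targets was not tested. These comparisons share groups of mice. XAF1 had 0.26 (0.14), IFIT3 0.27 (0.17) and IFI27 0.24 (0.17) with age, and IFIT2 had 0.23 (0.13), IFI27 -0.28 (0.17) and IFNAR2 (a receptor chain) -0.12 (0.07) with 3TC, each with an adjusted p of 1.0 from edgeR. IFI27 was the only one above the 95th percentile of the silent genes in all 18 mice, and 11 of the 18 were at or below the silent median. IFNB1, the interferon that IRF3 induces, had 8 to 32 counts per mouse and lay at 0.569 times the silent median.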

How the data were processed

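The authors trimmed reads with fastp, aligned them with STAR to mm10 (mouse), counted genes with STAR and repeats, multi-mapping reads included, with TEtranscripts, and deposited whole-number counts per gene and repeat, not normalized. STAR and DESeq2 are named without versions in the submitters' notes, and the strand setting is not given in the sources used here. The paper describes total RNA depleted of ribosomal RNA and the labels polyA RNA, which was not settled and can change the level of unspliced and silent genes.

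Groups, sexes and ages came from the sample labels, 18 mice with 6 per group, and no batch is named there. The 16774 genes and repeats with a mean count above 10 were tested with edgeR 4.0.16 (TMM, quasi-likelihood test, 3 groups in one model, Benjamini-Hochberg adjustment over all, threshold 0.05) in R 4.3.3. Intervals are 95% from the fit. CPM were divided by the exon length of GENCODE vM21 (GRCm38, the assembly of mm10). Correlations used log2 CPM (prior count 2) and 100000 permutations, or 20000 where a mouse was left out. Total counts were 34.6 to 49.1 M. In simulated counts for older against younger mice (16772 genes and repeats), 85 of 100 features changed by a log2 of 1 and 99 of 100 changed by 2 were called, beside 9 false calls. The simulated features varied independently of each other, whereas many genes here moved together with the silent level. Smaller changes, such as those of the members between groups, were not simulated, so the power for them is not known. The closest pair of libraries within a group still differed by a chi-square of 4.57 per degree, so none was counted as a repeat.

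All 10 members are named, with the 3 smallest p of each pathway list in the age and the 3TC comparison and the 3 genes most like each member. An item that this rule would name is not reported here. TLR9, MYD88, TICAM1 and IRF7 are named in any case. TLR8, IRAK1, IFNB1, DHX9, HSP90AA1, AMELX, F9, NEUROD6 and the sex comparison were chosen after values were seen, as were the genes named under other observations. The members and lists were chosen with earlier results of these data known. Alternatives were DESeq2 1.42.0, other normalizations and filters, genes only, 2 groups only, sex, silent genes or markers as terms, other lengths and leaving out each mouse. Python 3.11.15 and matplotlib 3.10.9 were used. Sequences are those of RefSeq.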

Additional observations from a re-analysis of the deposited data

Results flagged for a closer look

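Among 30 gene and group combinations of 6 mice, 2 held a mouse set apart from the other 5 by more than Dixon's 95% critical value (the gap to the nearest mouse over the whole range), where chance flags about 5% of groups. DDX58 was at 8.50 CPM in older 3TC-treated mouse DMO5, against 5.29 to 6.43 CPM in the other 5, and DMO5 also had the highest level of silent genes of all 18 mice. Without DMO5 the log2 difference of DDX58 between older 3TC-treated and older mice was -0.11, against -0.02 with it. TBK1 was at 19.3 CPM in older 3TC-treated mouse DFO5, against 13.9 to 15.5 CPM in the other 5, and DFO5 had the lowest level of silent genes of its group. Without DFO5 the log2 difference of TBK1 between older 3TC-treated and older mice was 0.01, against 0.08 with it.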

How the results depend on the processing

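In the 3 group comparisons 0 members passed in any alternative run, and TLR7 passed between the sexes in each, with a log2 difference of 0.78 to 0.93. The values below are of members that did not pass and that changed sign, and of counts of called features that moved; where no construction shows it, the cause was not tested. Log2 fold changes are given for older against younger (age), older 3TC-treated against older (3TC) and older 3TC-treated against younger mice (both). DESeq2 gave AIM2 -0.005 (3TC) and MAVS -0.003 (both), and relative log expression factors gave AIM2 -0.0032 (3TC) and MAVS -0.0021 (both). With total counts only, 0 features were called for age and 0 for both, with DDX58 -0.0543 and MAVS -0.0539 (age), DDX58 0.0196 and MAVS 0.005 (3TC), MAVS -0.0489 and TBK1 -0.0302 (both) and IRF3 -0.0083 between females and males. Factors from genes only and a fit on genes only each gave AIM2 -0.0068 (3TC) and 1 called feature (both), and the first gave r with the silent level of 0.172 for TLR3 and 0.068 for TREX1. With only the 2 groups compared, AIM2 was -0.003 (3TC) and 1 feature was called (both). With the silent level as a term, 4 features were called for age, 4 for both and 434 between the sexes, with DDX58 -0.0128 and MAVS -0.002 (age), AIM2 -0.0008 and DDX58 0.0041 (3TC), MAVS -0.0143 (both), and MAVS 0.0043 and IRF3 -0.0033 between females and males. With choroid plexus markers as a term, AIM2 was -0.0263 and MAVS 0.0043 (3TC), TLR7 -0.0034 and IRF3 0.0409 (both), and 1 feature was called (both). With microglial markers as a term, TMEM173 was 0.1964 (age), AIM2 -0.0024 (3TC), and DDX58 0.2557, TMEM173 0.1129 and TBK1 -0.1213 (both). Same-numbered mice of a sex did not deviate together (r of -0.549 to 0.337), and with sex and number as a replicate block 0 features were called for age and 0 for both, with TMEM173 0.09 (age), TREX1 0.0895 (3TC), and DDX58 0.0561, MAVS -0.0627, TMEM173 0.0049 and TBK1 -0.0658 (both). Without YM1 and DFO5, a setting chosen after seeing the data, DDX58 was -0.066 and MAVS -0.0281 (age), IFIH1 0.0356, DDX58 0.0313, MAVS 0.0649 and TMEM173 0.041 (3TC), TLR7 -0.1186 and TBK1 -0.0112 (both), and 1 feature was called (both). With the family genes as the silent set, also chosen after seeing the data, r of TLR3 was 0.000 and 6 members, against 3, were above the silent median in every mouse. The planned set of olfactory and vomeronasal receptor genes was not run.

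Leaving out each mouse in turn gave 1 to 2 called features (both). For age the log2 fold changes ran between -0.1226 and 0.017 for TMEM173, -0.1126 and 0.1193 for DDX58, and -0.0487 and 0.0829 for MAVS. For 3TC they ran between -0.0649 and 0.0548 for AIM2, -0.1147 and 0.1071 for DDX58, -0.1109 and 0.0636 for MAVS, -0.1229 and 0.0342 for IFIH1, and -0.1484 and 0.0386 for TMEM173. For both they ran between -0.103 and 0.2571 for TLR7, -0.1023 and 0.1013 for DDX58, -0.0849 and 0.059 for IRF3, -0.0916 and 0.078 for MAVS, and -0.0574 and 0.0507 for TBK1. Between females and males they ran between -0.0327 and 0.0293 for TLR3, -0.0469 and 0.0362 for TBK1, -0.0095 and 0.143 for DDX58, -0.081 and 0.0433 for MAVS, and -0.046 and 0.0451 for IRF3. The r with the silent level ran between -0.137 and 0.095 for TLR3 and between -0.171 and 0.177 for TREX1.

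TLR7 had 50 to 151 counts per mouse, and the intervals of its group differences were the widest of the 10. Part of its spread lay between the sexes, and the part of depth was not tested.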

Other observations

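IFIT3, an interferon target, was the only autosomal gene called between the sexes. It was higher in females by 0.41 on the log2 scale (standard error 0.10, edgeR adjusted p = 0.049) and lay at 1.83 times the silent median. The microglial marker GPR34, which is X-linked, was higher in females by 0.54 (0.13, adjusted p = 0.0294), at 1.31 times the silent median, whereas IKBKG, an X-linked kinase subunit at 1.58 times, differed by 0.23 (0.09, adjusted p = 0.829) and OTUD5, at 2.76 times, by 0.21 (0.11, adjusted p = 1.0). DDX3X, an X-linked RNA helicase that lay at 13.8 times the silent median, differed by 0.45 (0.16, adjusted p = 0.488), the largest value among the 84 X-linked genes above 4 times that median.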
